A study of Mus musculus with 4 samples.

Results

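The 10 genes described here are the cyclin-dependent kinase (CDK) inhibitors Cdkn1a, Cdkn1b, Cdkn1c, Cdkn2a, Cdkn2b, Cdkn2c and Cdkn2d and the D-type cyclins Ccnd1, Ccnd2 and Ccnd3. They were chosen by name, with earlier results of these data known, and every array target annotated to one of these symbols was kept. This gave 18 targets of 44170 on the array and 10 genes of 24171. Expression was measured on 4 single-colour arrays, of which 2 held RNA labelled as Neuro2a (N2a) cells given an siRNA against Men1 and 2 as N2a cells given a scramble siRNA. N2a is a mouse neuroblastoma line, and by the labels the cells of both groups were transfected, so the comparison is between siRNAs and not with untransfected cells. The siRNA is a short duplex RNA that directs cleavage of a matching transcript, and Men1 encodes menin, a scaffold of a histone H3 methyltransferase complex. The labels do not say whether the numbered replicates were separate cultures, so p-values measure the spread between arrays, which may be technical.

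D-type cyclins bind CDK4 and CDK6 and start the phosphorylation of the retinoblastoma protein, which frees E2F factors and lets a cell pass from G1 into S phase. The inhibitors of the INK4 family (Cdkn2a to Cdkn2d) bind CDK4 and CDK6 and keep D-type cyclins off them. Those of the Cip/Kip family (Cdkn1a to Cdkn1c) bind cyclin-CDK complexes, mainly those of CDK2. In mouse pancreatic islets, menin is known to act with its methyltransferase partners at Cdkn1b and Cdkn2c and to keep both genes expressed, which is why these genes are of interest where Men1 is knocked down.

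Intensities are the authors' linear values, for which robust multi-array averaging (RMA) combined the 3 probes of a target. Targets are numbered by brightness within a gene, and target 1 stands for the gene in the fit over all genes. A log2 change is the Men1 siRNA mean minus the scramble siRNA mean, given with the standard error (SE) of the limma fit, and it passed at an adjusted p under 0.05 (Benjamini-Hochberg over 24171 genes). Readings under 100 were treated as dim, since the series' value table lists exactly the 20620 targets at 100 or more on all 4 arrays. The arrays' random control probes read 48.1 and 52.3 with Men1 siRNA and 45.5 and 42.8 with scramble siRNA, so 100 is not a measured background. Array medians lay between 145.9 and 147.2 with Men1 siRNA and between 146.0 and 151.2 with scramble siRNA. The image name stored in the file of Men1 siRNA replicate 1 carries the number 2, as does that of replicate 2, so these replicate numbers serve only as names.

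Men1, the targeted gene, read 2764 and 4109 on the Men1 siRNA arrays and 6985 and 6222 on the scramble siRNA arrays at its brighter target, 0.511 times the scramble siRNA level. The change did not pass (−0.97 ± 0.35, SE, n = 2 arrays per group; limma adjusted p = 0.314), and it was −0.19 at the other target. Of the genes that mark the labelled cell type, Th, the enzyme of catecholamine synthesis, read 141.6 and 112.8 with Men1 siRNA against 95.0 and 128.9 with scramble siRNA, whereas the general neuronal gene Stmn2 read 22939 and 24964 with Men1 siRNA against 14670 and 18807 with scramble siRNA. The 19 measured markers of sympathetic neuroblasts summed to 66492 and 62903 against 45949 and 57115. Over all genes 94 passed (0.389%), 9 higher and 85 lower with Men1 siRNA, and none with any 1 of the 4 arrays left out. Markers of other cell types differed between the groups. The 16 measured epithelial markers summed to 2030 and 3341 with Men1 siRNA against 38512 and 23741 with scramble siRNA, and 15 of 16 had negative changes, 6 of which passed. The 16 fibroblast markers summed to 27891 and 34543 against 63923 and 64516 (3 passed, all lower), and the 16 immune and endothelial markers to 4797 and 5323 against 14356 and 8961 (1 passed, lower). Of the fibroblast markers 14 had negative changes, and Acta2 (1.61) and Tagln (2.69) had positive ones. The 8 adipocyte markers all had positive changes and 2 passed, with sums of 10384 and 7249 against 1159 and 1061. The 13 forebrain neuron markers all had positive changes and none passed, with sums of 41911 and 37327 against 21963 and 30581. The 11 red cell markers summed to 55779 and 63912 against 46533 and 24311, and the 15 glial markers to 23531 and 19335 against 15998 and 19974. The part of these cells in the values below was not tested, and in a bulk sample fewer cells of a type and less RNA per cell cannot be told apart.

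None of the 10 members passed the limma test over all genes, of which 0.389% passed, 0.0372% higher and 0.352% lower. The smallest adjusted p was 0.181, for Cdkn2a. At an unadjusted p under 0.05 there were 4 members, Cdkn1b, Cdkn2a, Cdkn2d and Ccnd2, all higher with Men1 siRNA, where 14.2% of all genes reached that level, 6.47% higher and 7.74% lower. That count was 2 without Men1 siRNA replicate 2 and 2 without scramble siRNA replicate 1. Both Men1 siRNA arrays lay above both scramble siRNA arrays for 6 members, against 25.8% of all genes, and no member had both below, against 21.7%. The other 4 members, Cdkn1c, Cdkn2b, Cdkn2c and Ccnd1, overlapped between the groups, as did all but 47.5% of all genes. The median log2 change was 0.98 over the 7 CDK inhibitors and 0.82 over all 10 members, beside 0.062 over all genes. Counted by target, 11 of 18 had both Men1 siRNA arrays above both scramble siRNA arrays, against 25.3% of all targets, and 2 had both below, against 21.3% (46.6% in either direction). No member target passed in the limma fit over all targets, where 0.34% passed, 0.0272% higher and 0.312% lower. At an unadjusted p under 0.05 there were 5 higher and 1 lower, beside 13.6% of all targets, 6.16% higher and 7.41% lower. Targets of 1 gene measure the same RNA, so these 18 values are not independent.

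**Figure D1:**
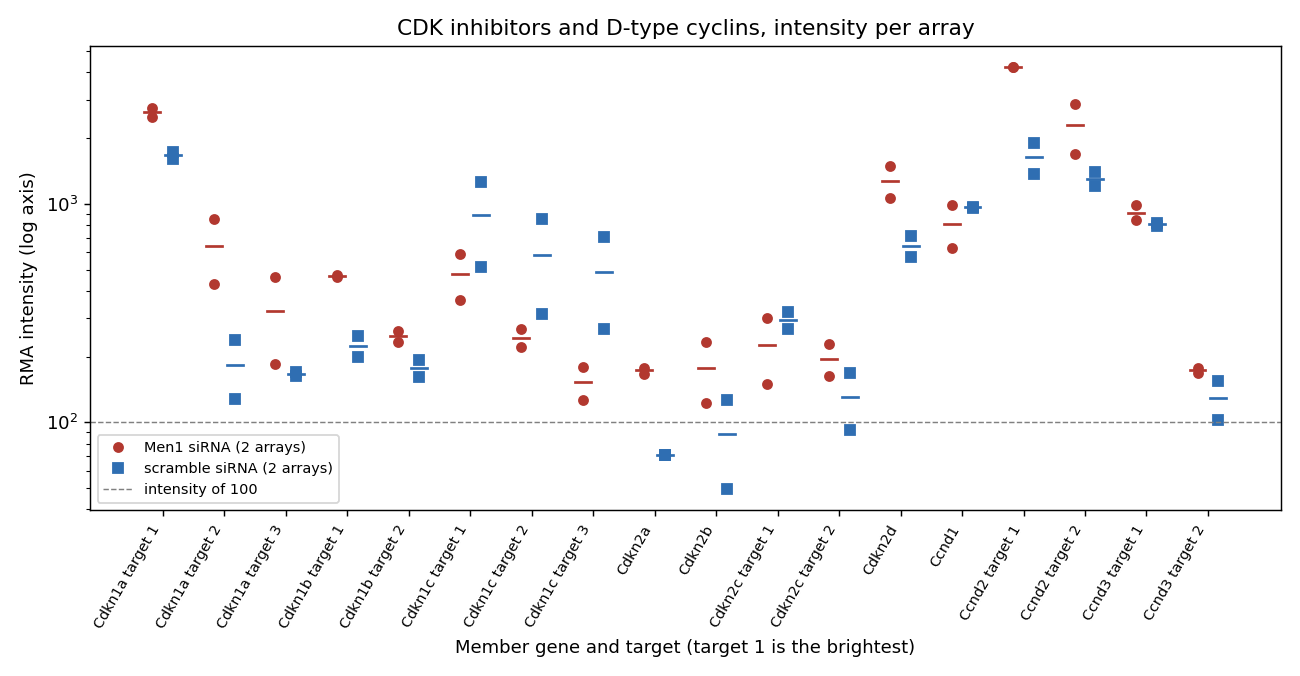
RMA intensity of each member target (log axis) on the 2 Men1 siRNA arrays (circles) and the 2 scramble siRNA arrays (squares), with group means as short lines and the intensity of 100 as a dashed line. All 3 Cdkn1a targets and both Ccnd2 targets have the Men1 siRNA arrays on top, the Cdkn1c targets have them at the bottom except for an overlap at target 1, and the Cdkn2a scramble siRNA arrays lie under 100.

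Cdkn1a encodes p21, the Cip/Kip inhibitor that p53 induces after DNA damage. The RefSeq table of start sites gives 2 starts for the gene on GRCm38.p6. The promoters shown here and below run from 250 bases before to 50 after a start, 5′ to 3′ on the gene's strand, and are those of the CDK inhibitors whose brightest target did not overlap between the groups, where the table holds them; those of Ccnd3, a cyclin with a change of 0.18, are not shown. Capitals mark matches on either strand to the motifs searched, of which overlapping matches were all kept. The GC box was searched as GGGCGG, the CCAAT box by its name, the E-box as CACGTG and the TATA box as TATAAA. An E2F-like motif was searched in one form as TTTGGCG, in another form as TTTCGCG and in a further form as TTTCCCG. The FoxO-like motif was searched as TGTTTAC, the motif of AP-1 factors as TGACTCA, and a paired form of the p53 element as ACATGTNNNNACATGT, whose N bases are left in lower case. A match is a description and not a shown binding site. The upstream start is at chr17:29090729-29091028, plus strand, and the downstream start at chr17:29093519-29093818, plus strand.
Cdkn1a upstream start: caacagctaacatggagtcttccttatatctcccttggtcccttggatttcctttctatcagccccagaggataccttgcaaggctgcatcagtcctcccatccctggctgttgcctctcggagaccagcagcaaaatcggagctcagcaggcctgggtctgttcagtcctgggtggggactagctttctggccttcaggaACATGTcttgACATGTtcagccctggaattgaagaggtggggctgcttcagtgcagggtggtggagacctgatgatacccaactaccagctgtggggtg
Cdkn1a downstream start: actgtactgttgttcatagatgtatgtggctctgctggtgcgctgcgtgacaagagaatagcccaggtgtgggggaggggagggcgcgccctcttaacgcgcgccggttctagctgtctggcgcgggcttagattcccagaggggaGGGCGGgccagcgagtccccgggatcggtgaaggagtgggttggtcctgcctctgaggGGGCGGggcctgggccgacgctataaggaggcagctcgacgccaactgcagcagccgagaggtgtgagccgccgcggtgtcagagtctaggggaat
The paired ACATGT element begins 49 bases before the upstream start and is found in 4 of 32851 mouse promoters of this length (0.0122%). The downstream start has no match to it and has 2 GC boxes, a motif held by 35.7% of all promoters. The E-box is in 7.15% of all promoters, the TATA box in 13.6%, the FoxO-like motif in 3.65%, the AP-1 motif in 1709 of the 32851, TTTGGCG in 1.56% and TTTCGCG in 0.849%, and none of these is in the 6 promoters shown.

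Cdkn1a (gene ID 12575) has 3 targets on chromosome 17 of mouse build MM9, designed on transcripts at 29227930 to 29237667, 29230763 to 29236509 and 29235151 to 29237667. The files give the span of each transcript and not the place of its probes, so exons cannot be assigned to a target. Target 1 read 2511 and 2754 on the Men1 siRNA arrays and 1735 and 1605 on the scramble siRNA arrays, 1.58 times the scramble siRNA level. Both Men1 siRNA arrays were the higher ones and the replicates lay close together, at 2632 ± 172 with Men1 siRNA and 1670 ± 92.3 with scramble siRNA (mean ± SD, n = 2). The change was 0.66 ± 0.31 (SE, n = 2 arrays per group) and did not pass in limma (adjusted p = 0.408). Target 2 read 428.4 and 849.3 with Men1 siRNA against 238.5 and 127.6 with scramble siRNA. Its change of 1.79 was the largest of the 18 member targets, and it came with replicates that differed 1.98-fold and 1.87-fold within their groups. Target 3 read 185.4 and 465.0 with Men1 siRNA against 170.0 and 162.4 with scramble siRNA, a change of 0.82. The 3 targets had 1 sign and no overlap, and the mean of the targets gave 1.09 (limma adjusted p = 0.298).

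Cdkn1b encodes p27, the Cip/Kip inhibitor that accumulates as cells leave the cycle. Its promoter is at chr6:134920151-134920450, plus strand (GRCm38.p6).
Cdkn1b: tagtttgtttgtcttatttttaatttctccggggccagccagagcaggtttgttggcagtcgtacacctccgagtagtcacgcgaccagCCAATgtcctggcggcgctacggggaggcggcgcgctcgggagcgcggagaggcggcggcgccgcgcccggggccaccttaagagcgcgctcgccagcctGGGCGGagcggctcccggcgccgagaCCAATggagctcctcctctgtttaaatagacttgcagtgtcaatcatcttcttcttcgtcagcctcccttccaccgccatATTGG
It holds 1 GC box and 3 CCAAT boxes, the CCAAT box being present in 37.4% of all promoters. Cdkn1b (gene ID 12576, chromosome 6, 134870447 to 134874327 on MM9) read 475.3 and 462.3 on the Men1 siRNA arrays and 200.0 and 248.2 on the scramble siRNA arrays. The Men1 siRNA arrays were almost equal and both stood above the scramble siRNA arrays, at a ratio of 2.10. The change was 1.07 ± 0.32 (SE, n = 2 per group; limma adjusted p = 0.250), with a 95% interval of 0.29 to 1.86 for this gene alone. Target 2, on a transcript at 134870434 to 134875213, read 233.5 and 261.6 with Men1 siRNA against 193.8 and 160.6 with scramble siRNA. It was also free of overlap, with a smaller change of 0.49. Neither target passed.

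Cdkn1c encodes p57, the Cip/Kip inhibitor that is imprinted and expressed from the maternal allele. It was the one CDK inhibitor with negative changes at all its targets. Cdkn1c has gene ID 12577, and target 1 (chromosome 7, 150644613 to 150646892 on MM9) read 591.2 and 364.9 on the Men1 siRNA arrays and 1260 and 513.5 on the scramble siRNA arrays. These overlapped, because Men1 siRNA replicate 1 was above scramble siRNA replicate 2. Target 2 (150644244 to 150646901) read 266.4 and 221.5 with Men1 siRNA against 852.5 and 314.9 with scramble siRNA. Target 3 (150646185 to 150646901) read 126.1 and 180.0 against 707.6 and 268.2. At targets 2 and 3 both Men1 siRNA arrays were lowest, and at every target scramble siRNA replicate 1 stood far above the rest, at 2.45 to 2.71 times replicate 2. The changes were −0.79, −1.09 and −1.53, and the gene did not pass (−0.79 ± 0.53, SE, n = 2 per group; limma adjusted p = 0.549). Without scramble siRNA replicate 1 it was −0.14, and without scramble siRNA replicate 2 it was −1.44. Without Men1 siRNA replicate 2 it was −0.44, so the size rests on single arrays. Epithelial and fibroblast marker sums, given above, were lower with Men1 siRNA. On scramble siRNA replicates 1 and 2 the fibroblast sums were 63923 and 64516 and the epithelial sums 38512 and 23741. The part of these cells in the values of Cdkn1c was not tested.

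Cdkn2a, the INK4 locus gene with an alternative reading frame, encodes p16Ink4a from one first exon and p19Arf, which restrains the p53 antagonist Mdm2, from another. RefSeq gives a start for each, and both are shown because the array has a single target for the gene, which does not tell them apart. The p19Arf start is the upstream one, at chr4:89294570-89294869, minus strand, and the p16Ink4a start is at chr4:89282143-89282442, minus strand (GRCm38.p6).
Cdkn2a upstream start: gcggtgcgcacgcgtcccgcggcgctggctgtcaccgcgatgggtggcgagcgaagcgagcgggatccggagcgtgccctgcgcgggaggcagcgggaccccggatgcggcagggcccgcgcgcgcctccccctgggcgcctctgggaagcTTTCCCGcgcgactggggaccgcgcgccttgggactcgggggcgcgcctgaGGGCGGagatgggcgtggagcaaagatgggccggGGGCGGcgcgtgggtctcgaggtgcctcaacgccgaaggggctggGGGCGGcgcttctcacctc
Cdkn2a downstream start: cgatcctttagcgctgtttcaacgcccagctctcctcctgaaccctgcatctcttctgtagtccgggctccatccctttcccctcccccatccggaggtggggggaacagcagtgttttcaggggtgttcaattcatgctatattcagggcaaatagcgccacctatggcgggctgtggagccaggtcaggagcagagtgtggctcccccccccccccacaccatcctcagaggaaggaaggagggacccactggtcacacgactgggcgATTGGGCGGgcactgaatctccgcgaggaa
The upstream start has 77.0% G and C, 3 GC boxes and a TTTCCCG match, which 3.39% of all promoters hold. The downstream start has 60.3% G and C, and its only GC box overlaps its only CCAAT box.

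Cdkn2a (gene ID 12578, chromosome 4, 88920444 to 88940443 on MM9) read 167.4 and 178.3 on the Men1 siRNA arrays and 70.8 and 70.6 on the scramble siRNA arrays. Both scramble siRNA arrays lay under 100, so the gene was at least 1.73-fold higher with Men1 siRNA. The fitted change was 1.29 ± 0.30 (SE, n = 2 per group; limma adjusted p = 0.181). Its neighbour Cdkn2b (gene ID 12579, chromosome 4, 88952229 to 88956863) encodes p15, an INK4 inhibitor known to respond to TGF-beta. It read 122.7 and 233.3 with Men1 siRNA against 49.5 and 126.6 with scramble siRNA. The groups overlapped, since scramble siRNA replicate 2 was above Men1 siRNA replicate 1. The change of 1.09 ± 0.58 did not pass (SE, n = 2 per group; limma adjusted p = 0.451). It was 0.42 without scramble siRNA replicate 1, 1.77 without scramble siRNA replicate 2 and 0.63 without Men1 siRNA replicate 2. With values under 100 set to 100, the change was 0.79 for Cdkn2a and 0.59 for Cdkn2b, so their sizes depend on dim readings.

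Cdkn2c encodes p18, the INK4 inhibitor that with p27 is a known menin target in mouse islets. Its 2 targets disagreed. Target 1 (gene ID 12580, chromosome 4, 109333480 to 109339262 on MM9) read 299.5 and 150.5 on the Men1 siRNA arrays and 318.5 and 267.9 on the scramble siRNA arrays. Target 2 (109333480 to 109337977) read 163.8 and 228.4 with Men1 siRNA against 92.8 and 168.6 with scramble siRNA. The groups overlapped at both, and the changes were −0.46 and 0.63. No direction can be given for the gene (−0.46 ± 0.43, SE, n = 2 per group; limma adjusted p = 0.667), which had a change of 0.084 as the mean of its targets and of 0.036 without Men1 siRNA replicate 2.

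Cdkn2d encodes p19Ink4d, the INK4 inhibitor known from neurons that have left the cycle. Its promoter is at chr9:21291160-21291459, minus strand (GRCm38.p6).
Cdkn2d: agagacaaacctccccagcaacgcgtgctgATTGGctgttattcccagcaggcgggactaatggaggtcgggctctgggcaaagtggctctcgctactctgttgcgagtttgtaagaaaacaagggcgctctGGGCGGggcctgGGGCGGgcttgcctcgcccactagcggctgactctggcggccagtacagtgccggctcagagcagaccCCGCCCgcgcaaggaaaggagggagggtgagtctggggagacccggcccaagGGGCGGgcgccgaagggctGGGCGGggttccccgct
It holds 5 GC boxes, 1 of them on the opposite strand, and 1 CCAAT box. Cdkn2d (gene ID 12581, chromosome 9, 21092907 to 21095463 on MM9) has a single target, which read 1067 and 1493 on the Men1 siRNA arrays and 570.1 and 714.4 on the scramble siRNA arrays. The groups did not overlap and stood at a ratio of 1.98, with 1280 ± 301 with Men1 siRNA and 642 ± 102 with scramble siRNA (mean ± SD, n = 2). The change was 0.98 ± 0.35 (SE, n = 2 per group) and did not pass in limma (adjusted p = 0.309). The forebrain neuron markers summed above had a median change of 0.60, and their part in the value of Cdkn2d was not tested.

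**Figure D2:**
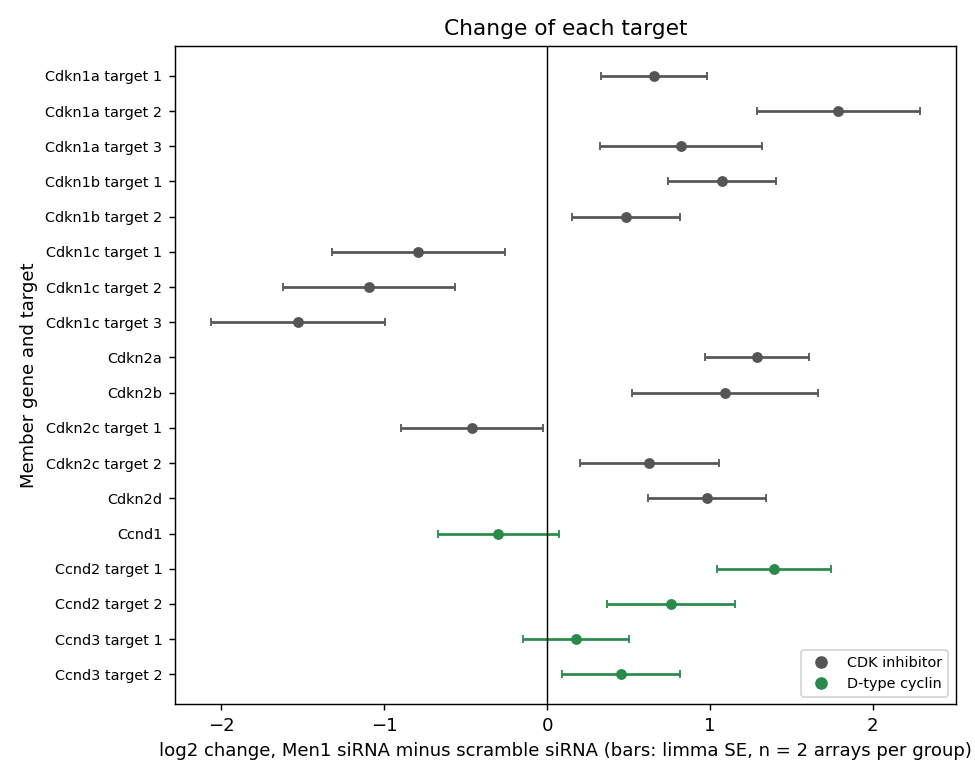
Log2 change of each member target, Men1 siRNA minus scramble siRNA, with bars of 1 limma SE (n = 2 arrays per group); grey points are CDK inhibitors and green points D-type cyclins. Only the 3 Cdkn1c targets, target 1 of Cdkn2c and Ccnd1 lie left of 0, and none of the 18 targets passed.

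Among the D-type cyclins, Ccnd2 stood apart from Ccnd1 and Ccnd3 in its values. Ccnd2, the cyclin D gene of cerebellar granule cell precursors and adult neural progenitors, has gene ID 12444 and lies on chromosome 6 at 127079455 to 127101045 on MM9. Target 1 read 4232 and 4229 on the Men1 siRNA arrays and 1365 and 1901 on the scramble siRNA arrays. The Men1 siRNA arrays were nearly identical and both were above the scramble siRNA arrays, at a ratio of 2.63. The change was 1.39 ± 0.33 (SE, n = 2 per group), with a 95% interval of 0.56 to 2.23 for this gene alone, and did not pass in limma (adjusted p = 0.184). With a prior that follows intensity it passed (limma adjusted p = 0.0124), while over the other alternatives the adjusted p reached 0.549. Target 2, on a shorter transcript at 127098317 to 127101066, read 1692 and 2878 with Men1 siRNA against 1398 and 1214 with scramble siRNA. It was free of overlap as well, with a change of 0.76.

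Ccnd1, the D-type cyclin induced by growth factor and Wnt signals in many cell types, has gene ID 12443 and 1 target (chromosome 7, 152117262 to 152125733). It read 626.2 and 986.1 on the Men1 siRNA arrays and 962.3 and 971.4 on the scramble siRNA arrays. Men1 siRNA replicate 1 was the lowest array and replicate 2 the highest, so the groups overlapped, and the change was −0.30 ± 0.36 (SE, n = 2 per group; limma adjusted p = 0.740). Without Men1 siRNA replicate 1 it was 0.029. Ccnd3, the D-type cyclin of lymphoid precursors, has gene ID 12445 (chromosome 17, 47641999 to 47736637). It read 842.3 and 983.9 with Men1 siRNA against 796.0 and 816.6 with scramble siRNA. The arrays did not overlap, but the ratio was only 1.13 (0.18 ± 0.31, SE, n = 2 per group; limma adjusted p = 0.829, 95% interval −0.60 to 0.95). Target 2 (47730415 to 47735123) read 176.8 and 168.9 against 155.1 and 102.9, a change of 0.45.

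The change of Ccnd2 was larger than that of Ccnd1 by 1.69 log2 units and larger than that of Ccnd3 by 1.22, from differences taken within each array. For Ccnd2 minus Ccnd1 the within-array log2 difference was 2.76 and 2.10 with Men1 siRNA against 0.50 and 0.97 with scramble siRNA, and for Ccnd2 minus Ccnd3 it was 2.33 and 2.10 against 0.78 and 1.22. For Ccnd3 minus Ccnd1 it was 0.43 and −0.0033 against −0.27 and −0.25, a change of 0.47. The groups did not overlap in any of the 3 pairs, which are built from the same 3 genes and are not independent. Among single genes 47.5% did not overlap in either direction, and the share over other gene pairs was not computed. A two-sided exact permutation test over arrays gave p = 0.333 for each pair (0.333 after adjustment over the 3 pairs), which is the smallest value that 2 against 2 arrays can give. Groups without overlap always give this value, so the test adds nothing to the lack of overlap. These differences compare changes and not levels, since 2 targets' intensities are not on a shared scale.

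Likeness of pattern was measured as the distance between log2 values centred on each gene's mean over the 4 arrays, among 11125 genes that read at least 100 on all arrays. The nearest to Cdkn1b were Cntnap5a (distance 0.047), Pura (0.058) and Fry (0.059), and the nearest to Ccnd2 were Neto1 (0.092), Acsbg1 (0.098) and Clec2l (0.102). Neto1 read 1913 and 1943 with Men1 siRNA against 670.8 and 876.6 with scramble siRNA, and Cntnap5a read 283.2 and 272.4 against 118.0 and 152.3. Each pattern rests on 4 values.

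The kinases and other cyclins of the pathway gave 18 measured genes, of which none passed, 1 was higher and 3 were lower at an unadjusted p under 0.05 in limma, and the median change was −0.16. Cdk4, a partner of the D-type cyclins, read 6634 and 8175 with Men1 siRNA against 9665 and 9715 with scramble siRNA. Cdk6, the other partner, read 114.1 and 243.6 against 90.3 and 93.0, at least 1.67-fold higher, and its target 2 had the opposite sign (−0.40). Without Men1 siRNA replicate 2 the fitted change of Cdk6 was 0.32 in place of 0.86, so its size rests on that array. Cdk2, the kinase of S phase entry, read 147.6 and 268.7 against 789.3 and 557.1 (−1.74 ± 0.42, SE, n = 2 per group; limma adjusted p = 0.191). The mitotic kinase Cdk1 had a change of −1.05 and Wee1, the kinase that restrains Cdk1, −0.88. Cdc25a, a phosphatase that activates CDKs, was at least 2.16-fold higher at target 1, with −0.41 at target 2. Men1 siRNA arrays were lower without overlap for 7 of the 18 genes and higher for 3, beside 21.7% and 25.8% of all genes. The counts at an unadjusted p under 0.05, here and in the lists below, stand beside 6.47% of all genes higher and 7.74% lower.

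Of 17 measured genes of the Rb and E2F families none passed, and 1 was lower at an unadjusted p under 0.05. Rb1, the retinoblastoma gene, read 332.7 and 227.2 with Men1 siRNA against 129.5 and 192.7 with scramble siRNA, a change of 0.80. E2f1, an activator of S phase genes, read 453.7 and 761.8 against 441.5 and 456.6 and overlapped. E2f8, an E2F repressor, had −1.59, with scramble siRNA replicate 1 at 1090 and replicate 2 at 333.2. Tfdp2, an E2F partner, had −1.30 and E2f3 0.69 at target 1, and both had targets of either sign. Tfdp2 was at −0.57 without Men1 siRNA replicate 2 and at −2.03 without replicate 1, and E2f8 at −0.74 without scramble siRNA replicate 1. The median was −0.0083.

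Genes of DNA replication that E2F factors are known to drive had negative changes in 14 of 20 cases, beside 11009 of all 24171 genes. None passed, 5 were lower and none higher at an unadjusted p under 0.05 in limma, where 7.74% of all genes were lower and 6.47% higher. Without overlap 10 were lower and 1 higher, beside 21.7% and 25.8% of all genes, and the median change was −0.36. Mcm3 and Mcm2, subunits of the replicative helicase, read 364.0 and 300.8 (Mcm3) and 228.1 and 209.2 (Mcm2) with Men1 siRNA, against 771.2 and 1048 (Mcm3) and 539.0 and 522.7 (Mcm2) with scramble siRNA. The DNA polymerase clamp gene Pcna read 7667 and 7723 against 14127 and 14353, 0.54 times the scramble siRNA level (limma adjusted p = 0.294). Tk1, a thymidine kinase of S phase, had a change of −1.31, and of −0.87 without scramble siRNA replicate 1. The 18 measured mitosis genes had a median of −0.90, with 8 lower and none higher at an unadjusted p under 0.05, beside 7.74% and 6.47% of all genes. None passed the threshold in limma, which 0.389% of all genes did. Their sum was 5678 and 5960 with Men1 siRNA against 10977 and 11559 with scramble siRNA. With 2 groups of 2 arrays, any sum and any gene that differ without overlap follow the same split of arrays. A link between these sums and the values of the members was therefore not tested.

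**Figure D3:**
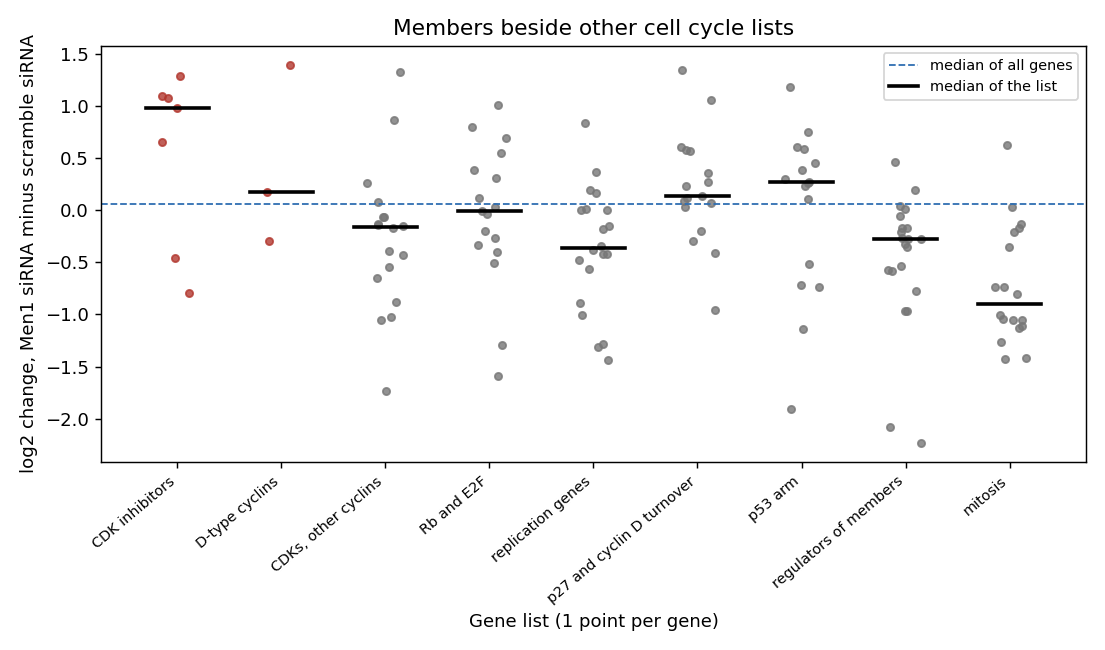
Log2 change of every measured gene in the lists of CDK inhibitors, D-type cyclins and other cell cycle genes (1 point per gene), with list medians as black bars and the median of all genes, 0.062, as a dashed line. The CDK inhibitor median lies at 0.98, and the medians of replication genes and mitosis genes lie at −0.36 and −0.90.

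Of 17 measured genes that act in the turnover of p27 and D-type cyclins none passed, 2 were higher and 1 lower at an unadjusted p under 0.05, and the median was 0.14. Cryab, a chaperone that acts with Fbxo4 in cyclin D1 turnover, read 723.4 and 1013 with Men1 siRNA against 303.5 and 372.7 with scramble siRNA. Fbxo4, an F-box gene, read 251.6 and 218.5 against 551.7 and 374.9. Uhmk1, a kinase that phosphorylates p27, had 1.05, and Pim1, a kinase gene, had 0.57 at target 1 and negative values at its other targets. In the p53 arm none of 16 measured genes passed, and 1 was higher and 2 lower at an unadjusted p under 0.05, with a median of 0.27. Trp53 read 3272 and 3948 with Men1 siRNA against 6557 and 5309 with scramble siRNA (−0.72 ± 0.33, SE, n = 2 per group; limma adjusted p = 0.398). The p53 targets Gadd45a and Btg2, both growth arrest genes, read lower, with Gadd45a at 1169 and 1074 against 4845 and 3628 and Btg2 at 370.8 and 380.2 against 1162 and 585.9. The change of Btg2 was −1.14, and it was −0.64 without scramble siRNA replicate 1. Eda2r, another p53 target, was at least 1.13-fold higher at target 1, with one Men1 siRNA array under 100 and the opposite sign at its other targets. Of the 16 measured genes of this arm 11 had positive changes, the sign of Cdkn1a, itself a p53 target, beside 13162 of all 24171 genes. The other 5, among them Trp53, Gadd45a and Btg2, had negative changes.

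Of 21 measured genes that regulate transcription of the members none passed, and 4 were lower and none higher at an unadjusted p under 0.05, Men1 among them. Klf4, a zinc finger factor known to induce Cdkn1a, read 207.8 and 288.1 with Men1 siRNA against 845.9 and 1272 with scramble siRNA (−2.08 ± 0.38, SE, n = 2 per group; limma adjusted p = 0.113). Lef1, a Wnt pathway factor for which D-type cyclin genes are known targets, read 92.9 and 82.1 against 578.4 and 290.0, at least 4.10-fold lower at target 1. Its 5 targets disagreed in size, and target 3, which was above 100 on all arrays, overlapped at 143.9 and 176.4 against 167.5 and 169.0 (−0.078). Tcf7l2, of the same family, had −0.97 at target 1, and −0.58 without scramble siRNA replicate 1. Target 2 read 455.4 and 478.4 against 1115 and 1189 (−1.30), and target 3 read 290.9 and 377.8 against 1185 and 1133 (−1.81). Its 11 targets ranged from −2.35 at target 7 to 0.059 at target 11, which was under 100 on all arrays. Klf4 is also an epithelial gene, and epithelial marker sums were lower on the same arrays; their part in its value was not tested.

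**Figure D4:**
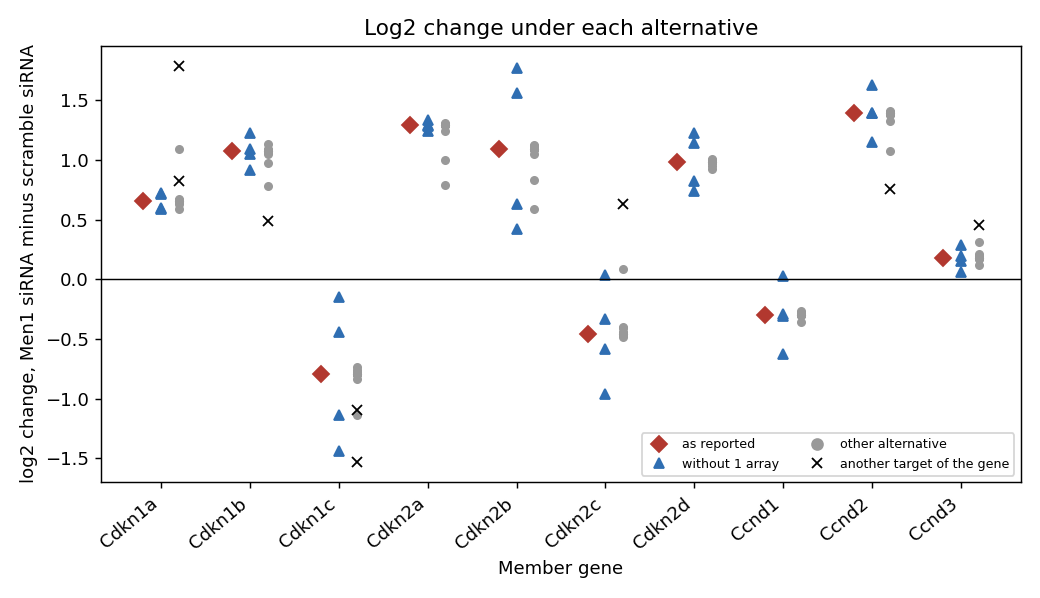
Log2 change of each member as reported (diamonds), without each array in turn (triangles), under the other alternatives (circles) and at other targets of the gene (crosses). Cdkn2c and Ccnd1 cross 0, Cdkn1c and Cdkn2b spread widely when single arrays are left out, and the remaining 6 members stay above 0 throughout.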

How the data were processed

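Per the file headers, the authors deposited linear intensity values per target, summarised by RMA on a NimbleGen layout annotated on MM9; per the labels' protocols cRNA was labelled for NimbleGen arrays, whereas the series text names Agilent. Which scanner and software were used is not stated in the headers or labels. The image name in the file of Men1 siRNA replicate 1 carries the number 2; samples were taken as the labels give them. The 2 scramble siRNA columns of the series' value table hold each other's per-array values, so the per-array files were used. Symbols were updated through gene IDs (21583 of 24204 matched). Values were taken to log2 without pseudocount, and each gene was represented by its brightest target (mean log2 over the arrays). Men1 siRNA was compared with scramble siRNA by lmFit and eBayes of limma 3.58.1 (R 4.3.3), two-sided, Benjamini-Hochberg over 24171 genes and, for targets, over 44170. "At least" folds are the brighter group's mean against 100 or the dimmer value, whichever was higher, per array. They allow for dim readings and not for the spread between arrays. The code was tested on simulated data. With 2 arrays per group, the number of arrays limits the precision. All members are named, with Men1, Cdk4, Cdk6, Rb1, E2f1 and, per pathway list, the 4 genes of smallest unadjusted p. Members and lists were chosen with earlier results of these data known. Some listed genes were not analysed or are not reported here. Promoters are RefSeq's on GRCm38.p6, held for 7 members. Alternatives were a replicate block, each array left out, 3 normalizations, the value table, leaving out dim genes, averaging the targets, a pseudocount of 32 and 2 priors; a crossed block and a floor of 100 were added after seeing the data. Python 3.11.15, pandas 2.3.3, scipy 1.17.1 and matplotlib 3.10.9 were used.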

Additional observations from a re-analysis of the deposited data

How the results depend on the processing

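No member passed as reported, and none passed under the alternatives except Ccnd2 with a trended prior (1 member past the threshold, limma adjusted p = 0.0124). The count over all genes was 94 as reported. It was 0 with any 1 array left out, 0 with crossed replicate numbers as a block, 8 with values under 100 set to 100, 252 with a pseudocount of 32, 289 with the filter on dim genes, 418 in the value table and 711 with a trended prior. The cause was not tested, except that the filter and the value table test fewer genes (16302 and 12701). With the replicate number as a block 69 genes and 0 members passed. Across genes the replicate differences of the 2 groups correlated at −0.175. This correlation cannot settle whether the arrays were paired, by these numbers or by crossed ones. Replication genes past the threshold were 2 in the value table and 1 with a trended prior. Genes of the p53 arm were 1 in the value table, 1 with a pseudocount of 32 and 1 with a trended prior, and regulators of the members 1 in the value table and 1 with a trended prior. Signs turned for Cdkn2c (0.036 without Men1 siRNA replicate 2, 0.084 as the mean of targets, 0.63 at target 2), Ccnd1 (0.029 without Men1 siRNA replicate 1), Cdc25a (−0.41 in the value table), E2f3 (−0.25 as the mean of targets) and Pim1 (−0.39 as the mean of targets). The other 8 members kept their sign under every alternative run. Without 1 array, changes ranged from −1.44 to −0.14 for Cdkn1c, from −0.96 to 0.036 for Cdkn2c, from −0.63 to 0.029 for Ccnd1, from 0.42 to 1.77 for Cdkn2b and from 1.15 to 1.63 for Ccnd2. The differences between D-type cyclins kept their sign under 5 alternatives, but with the mean of targets Ccnd2 minus Ccnd3 was 0.76 in place of 1.22. Dim readings limit Cdkn2a, Cdkn2b and target 2 of Cdkn2c, each with at least 1 array under 100.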
